A study of Mus musculus with 12 samples.

Results

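The G1/S control and DNA replication genes are the cyclins, kinases, licensing factors and fork proteins that take a cell from G1 into S phase and copy its DNA. The list had 36 genes, set by name from their roles, with earlier results of these data known. Of them, 34 matched a row of the value table that carried their symbol alone. Those 34 are described here among 22180 genes tested. Ccne2 and Rfc4 shared their rows with other symbols and were not analysed here. RNA came from the cerebellum of mice and was measured on Affymetrix whole-transcript arrays, with 1 array per mouse. The groups were Ciz1-/- females (KO females), Ciz1-/- males (KO males), wild-type females (WT females) and wild-type males (WT males), with 3 arrays each. The labels conflict on the controls, whose source name says wild type and whose extraction protocol gives Ciz1+/+, while their genotype field reads Ciz1+/-. They also give the age as 10 months in the protocol and as 6 to 10 months in the design text. How the allele was made is not given in the sources used here.

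In G1, D-type cyclins bind the kinases Cdk4 and Cdk6 and phosphorylate the retinoblastoma protein, which releases E2F factors to transcribe the genes of S phase. Cdc6 and Cdt1 load the MCM ring on origins of replication, and GINS and the cyclin E and cyclin A kinases turn that ring into the active helicase. Polymerases then copy the DNA behind it, with Pcna as their sliding clamp and RPA on the single strands. Ciz1 encodes a nuclear protein that binds the CDK inhibitor encoded by Cdkn1a and promotes the start of replication, working with cyclin E and cyclin A. Neurons of the adult cerebellum no longer divide, so few of its cells are in S phase, and some of these genes have other uses in resting cells, among them DNA repair.

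All values below are log2 of the deposited intensity, and a level on one row of an array is not comparable with a level on another row. Array medians lay between 96.45 and 98.7 on the linear scale. The targeted gene followed its labels, with Ciz1 at 7.31, 7.17 and 7.09 in KO females and 7.26, 6.82 and 7.10 in KO males, against 8.90, 8.70 and 8.80 in WT females and 8.73, 8.73 and 8.72 in WT males. Its difference was -1.64 (SE 0.07; adjusted p = 1.42e-06), and every KO array was below every WT array. Granule cell markers had a mean between 10.83 and 10.98, and Purkinje cell markers between 11.36 and 11.55, in all 12 arrays. The series holds no other tissue to compare these levels with, so they do not test the tissue label. A gene was called dim where its mean was under 6.47, the 95th percentile of 1105 olfactory receptor genes, and 10 of the 34 genes (29.4%) were dim, against 40.8% of all genes. Dim rows were Ccna2, Cdk6, Cdc6, Mcm3, Rfc3, E2f2, Gins1, Gins2, Pole and Rrm2, and their differences are not read as differences in RNA. For comparison, the Y-linked Eif2s3y stood between 4.05 and 4.50 in the 6 female arrays, which carry no Y chromosome, and between 8.86 and 9.18 in the 6 male arrays. Of the 5 Y-linked genes tested, 3 were lower in females at an adjusted p under 0.05 (0.0361% of all genes), and 2 had a higher mean in females. Dim rows made up 2 of the 5.

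In KO against WT cerebellum over both sexes, none of the 34 genes, each by its brightest row, passed the test: limma called 0 at an adjusted p under 0.05, against 0.0225% of all genes, and 0 at an unadjusted p under 0.05, against 9.26% of all genes. The KO and WT arrays overlapped for all 34, while 0.55% of all genes were apart. Of the 34, 18 had a higher and 16 a lower mean in KO, with a median difference of 0.01, beside 10998 higher, 11182 lower and a median of -7e-04 over all genes. Differences ran from -0.11 for Ccna2 to 0.12 for Ccnd1. The median size of a difference was 0.033 over the 34 genes and 0.054 over all genes, and the median SE was 0.061 and 0.063. The 95% interval of every one of the 34 lay within 0.38 of 0 on the log2 scale, a bound that corresponds to a 1.3-fold difference in intensity. These limits hold for the measured intensity of each gene's brightest row, and intensity was not calibrated against RNA amount. For the 24 genes that were not dim, the intensity is read as RNA averaged over the whole tissue. There, fewer cells of a type and less RNA per cell cannot be told apart. For the dim rows, the interval is not read as a bound on RNA.

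**Figure D1:**
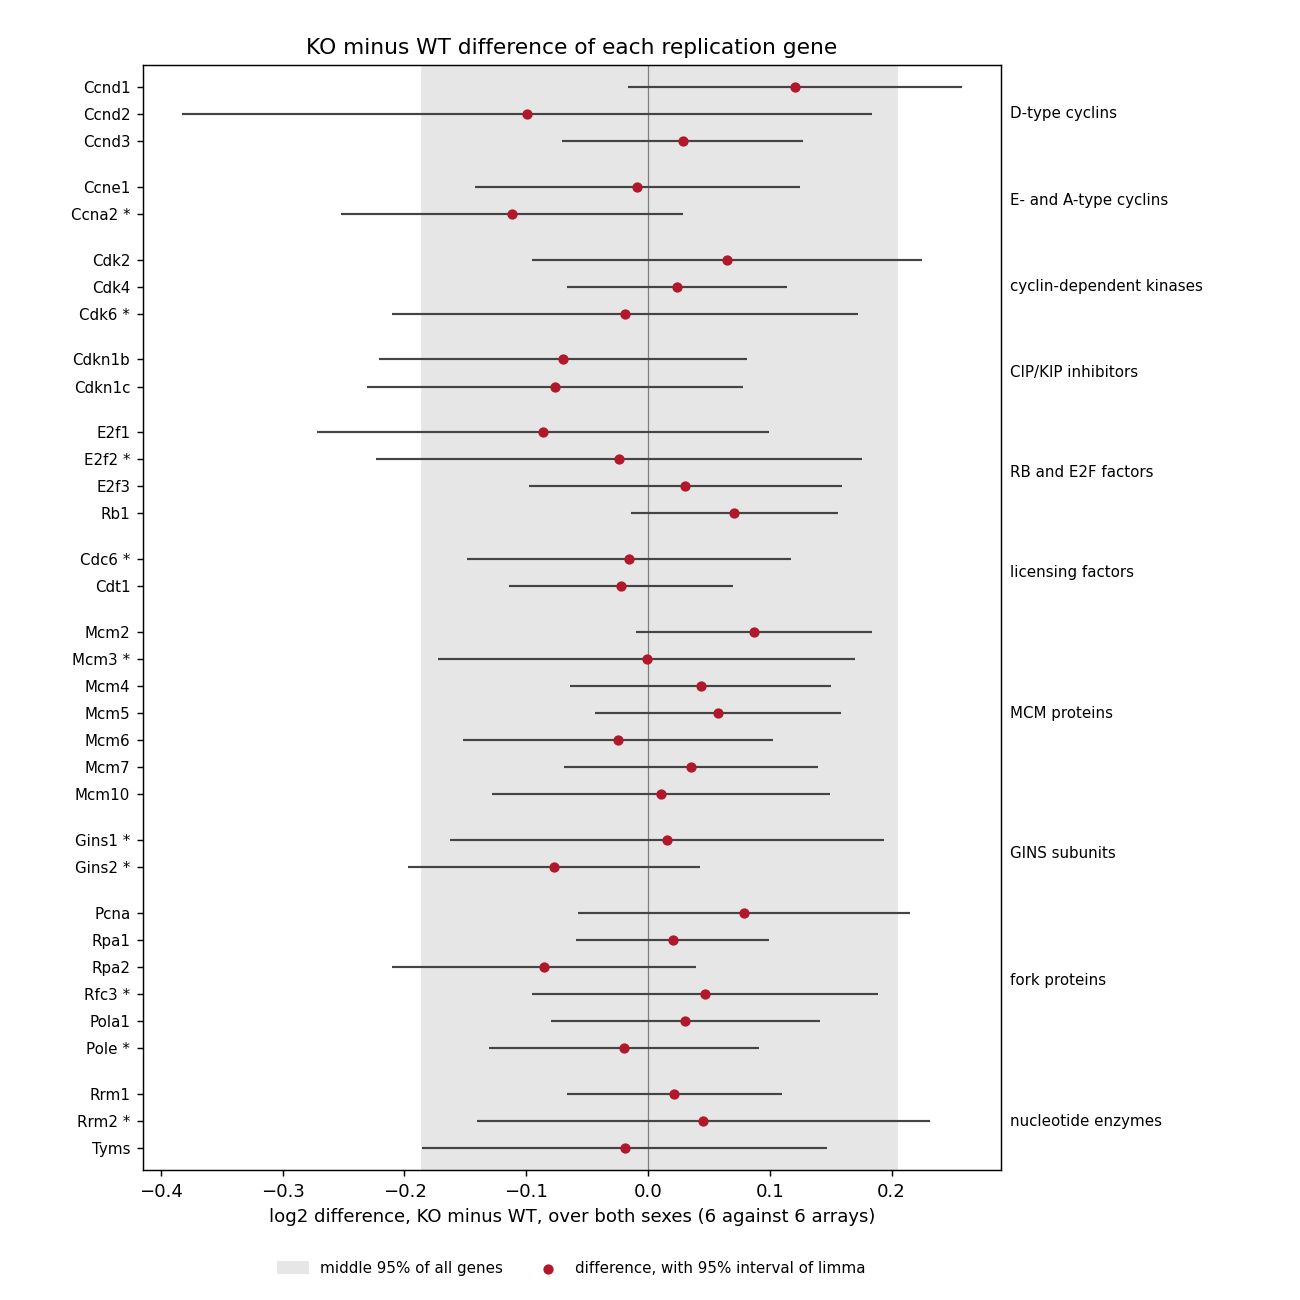
Log2 difference of each of the 34 genes, KO minus WT over both sexes (6 against 6 arrays), with its 95% interval from limma. Genes are grouped by role, an asterisk marks a dim row, and the grey band holds the middle 95% of all 22180 genes. Every interval crosses 0, and the points lie between -0.11 and 0.12.

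**Figure D2:**
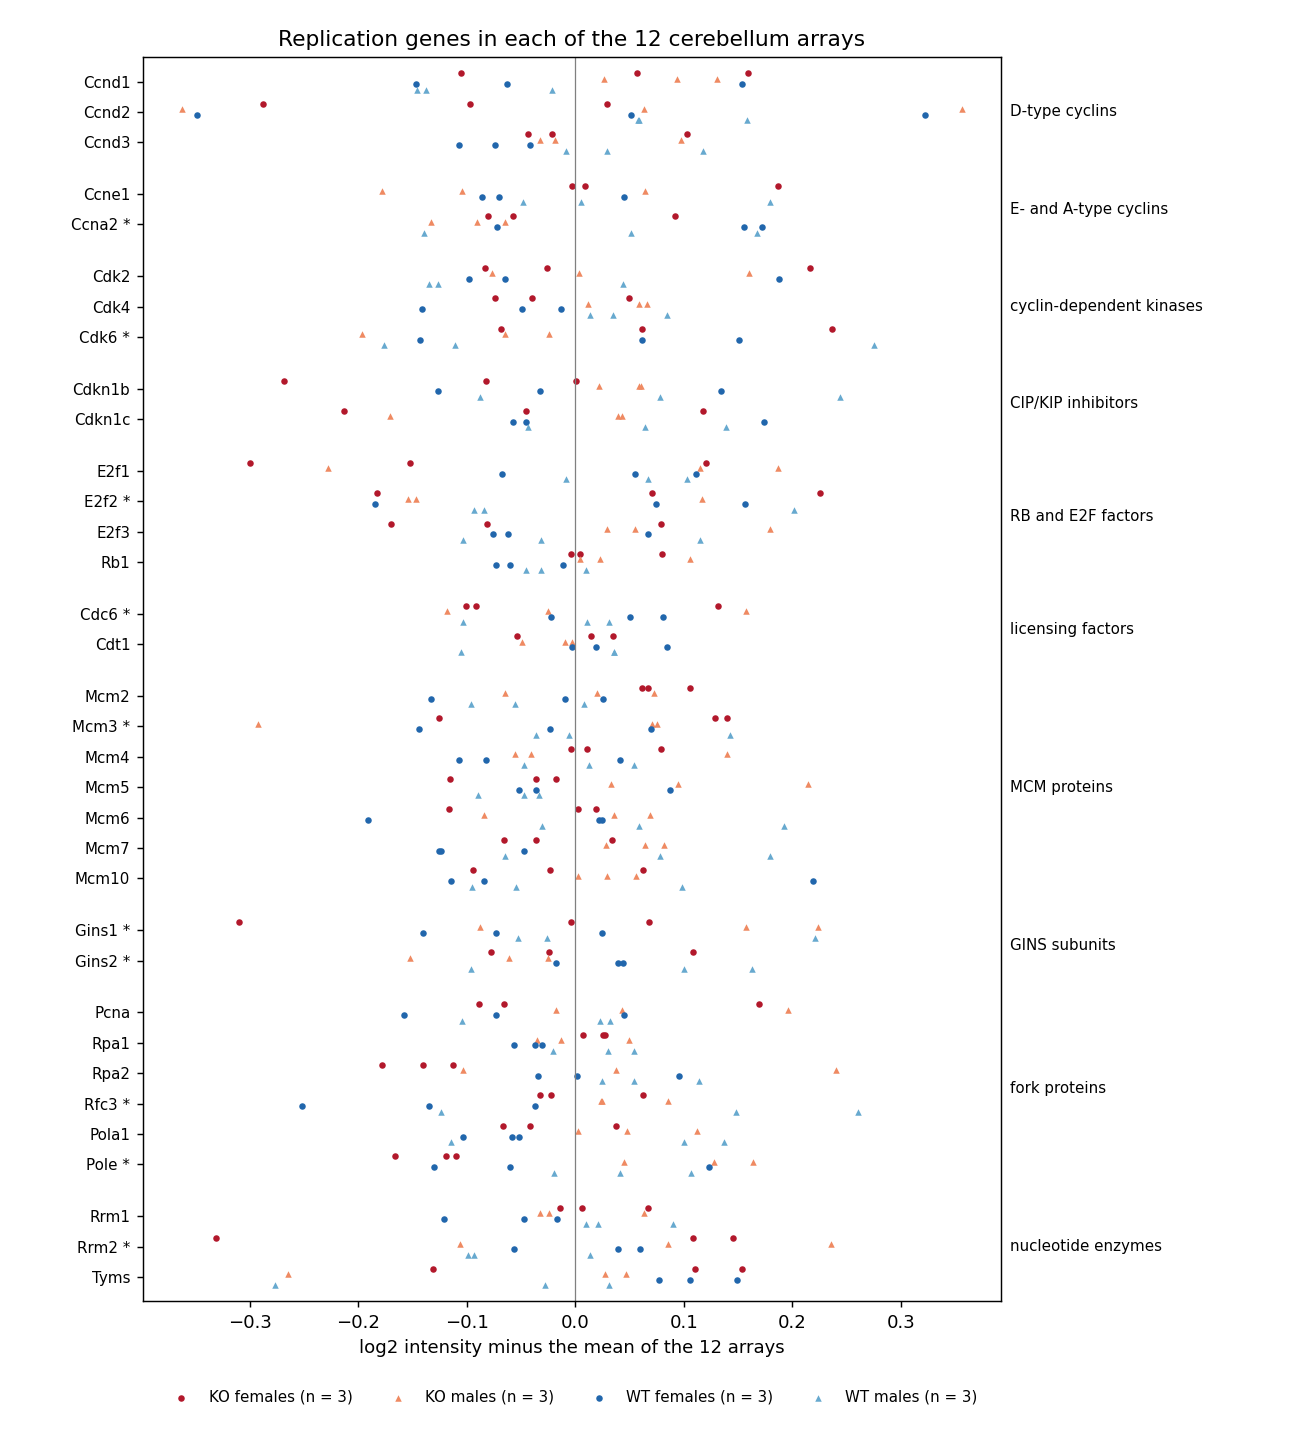
Level of the 34 genes in each array, as log2 intensity minus the mean of the gene over the 12 arrays. Circles are females and triangles males, in red shades for KO and blue shades for WT, and an asterisk marks a dim row. KO and WT points are interleaved for every gene, and Ccnd2 has the widest spread.

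Among the D-type cyclins, which answer to growth factors, Ccnd1 had the largest difference of the 34 genes. Its levels were 8.28, 8.38 and 8.12 in KO females and 8.25, 8.32 and 8.35 in KO males, against 8.38, 8.08 and 8.16 in WT females and 8.08, 8.20 and 8.08 in WT males. All KO males were above all WT males, while WT female replicate 1 was above all but 1 of the KO arrays. The difference was 0.12 (SE 0.06; adjusted p = 0.585), with a 95% interval from -0.02 to 0.26. Ccnd2 varied more within groups than between them, at 6.59, 6.90 and 6.78 in KO females and 6.94, 7.23 and 6.51 in KO males, against 6.53, 7.20 and 6.93 in WT females and 6.93, 7.03 and 6.93 in WT males. KO males alone spanned the full range of the 12 arrays, from 6.51 to 7.23, and the difference was -0.10 (SE 0.13; adjusted p = 0.853). Ccnd3 stood at 8.45, 8.59 and 8.47 in KO females and 8.46, 8.59 and 8.47 in KO males, against 8.38, 8.45 and 8.41 in WT females and 8.52, 8.48 and 8.61 in WT males. Its groups overlapped, with a difference of 0.03 (SE 0.05; adjusted p = 0.89).

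The cyclins that follow in late G1 and S phase did not pass either. Ccne1, whose product activates Cdk2 at the G1/S boundary, had levels of 7.39, 7.21 and 7.20 in KO females and 7.10, 7.02 and 7.27 in KO males, against 7.25, 7.12 and 7.13 in WT females and 7.38, 7.15 and 7.21 in WT males. The 2 lowest arrays were KO males, yet KO and WT overlapped in both sexes, and the difference was -0.01 (SE 0.06; adjusted p = 0.982). Ccna2, the S phase cyclin, was dim, at 5.91, 6.06 and 5.89 in KO females and 5.84, 5.88 and 5.91 in KO males, against 6.14, 5.90 and 6.13 in WT females and 6.14, 6.02 and 5.83 in WT males. The 3 KO males lay close together, whereas WT males spanned 5.83 to 6.14, and the difference was -0.11 (SE 0.06; adjusted p = 0.62).

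Of the kinases, Cdk4, the partner of the D-type cyclins, was tightly measured, at 9.12, 8.996 and 9.03 in KO females and 9.14, 9.13 and 9.08 in KO males, against 9.06, 9.02 and 8.93 in WT females and 9.11, 9.16 and 9.08 in WT males. Its interval was among the narrowest, from -0.07 to 0.11, around 0.02 (SE 0.04; adjusted p = 0.903). Cdk2, the partner of cyclins E and A, ranged from 6.54 to 6.84 in KO and from 6.49 to 6.81 in WT, and differed by 0.06 (SE 0.07; adjusted p = 0.823). The dim Cdk6 ranged from 4.66 to 5.09 in KO and from 4.68 to 5.13 in WT, with -0.02 (SE 0.09; adjusted p = 0.972). The CIP/KIP family of kinase inhibitors, which bind cyclin-CDK complexes and hold cells out of the cycle, had 2 genes among the 34, and neither passed the test. Cdkn1b, which helps cells to stay out of the cycle, stood at 9.37, 9.45 and 9.18 in KO females and 9.51, 9.51 and 9.47 in KO males, against 9.32, 9.59 and 9.42 in WT females and 9.36, 9.70 and 9.53 in WT males. KO female replicate 3 was the lowest array and WT male replicate 2 the highest, and the difference was -0.07 (SE 0.07; adjusted p = 0.787). Cdkn1c, an imprinted gene, ranged from 6.47 to 6.81 in KO and from 6.63 to 6.86 in WT, with -0.08 (SE 0.07; adjusted p = 0.767).

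The retinoblastoma gene Rb1, which restrains E2F, stood at 10.61, 10.69 and 10.60 in KO females and 10.71, 10.63 and 10.61 in KO males, against 10.55, 10.60 and 10.53 in WT females and 10.56, 10.62 and 10.58 in WT males. KO females were all above WT females, the males overlapped, and the difference was 0.07 (SE 0.04; adjusted p = 0.606), with a 95% interval from -0.01 to 0.16. A second, less bright row of Rb1 had the opposite sign, with a difference of -0.10 (SE 0.09). The activating factor E2f1 ranged from 6.48 to 6.96 in KO and from 6.71 to 6.89 in WT. Its difference was -0.09 (SE 0.08; adjusted p = 0.785), and the SD over the 6 arrays was 0.21 in KO and 0.07 in WT. E2f3 stood at 6.59, 6.68 and 6.84 in KO females and 6.82, 6.94 and 6.79 in KO males, against 6.83, 6.69 and 6.70 in WT females and 6.73, 6.88 and 6.66 in WT males. Its groups overlapped around 0.03 (SE 0.06; adjusted p = 0.912), and the dim E2f2 differed by -0.02 (SE 0.09; adjusted p = 0.964).

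**Figure D3:**
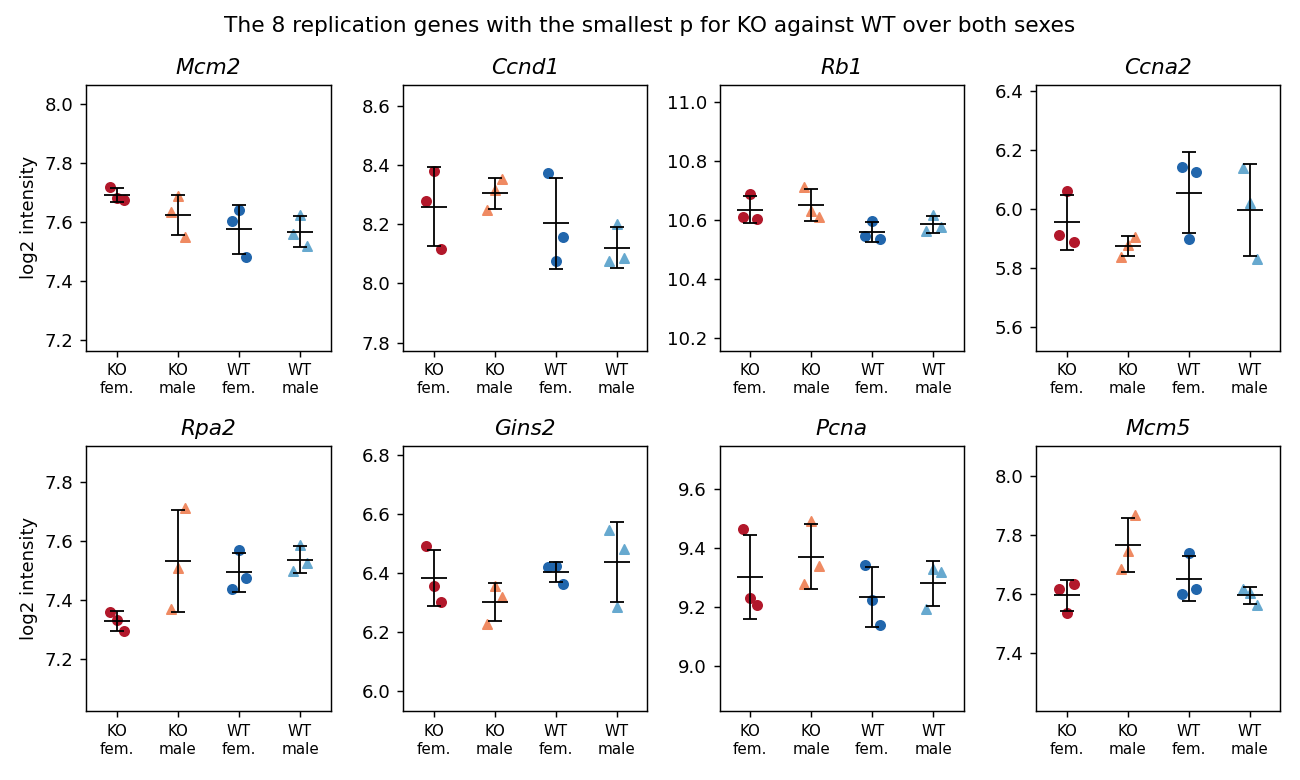
Log2 intensity of the 8 genes with the smallest unadjusted p for KO against WT over both sexes, 1 point per array, with bars for the mean and SD of each group (n = 3). All panels have the same height on the log2 scale. KO and WT overlap in each panel, and only Mcm2, Rpa2 and Rb1 in females and Ccnd1 and Mcm5 in males have all KO points on one side of the WT points.

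Origin licensing rests on Cdc6 and Cdt1, which load the MCM ring. Cdt1 ranged from 7.12 to 7.20 in KO and from 7.06 to 7.25 in WT, with -0.02 (SE 0.04; adjusted p = 0.911). The dim Cdc6 ranged from 5.36 to 5.63 in KO and from 5.37 to 5.56 in WT, with -0.02 (SE 0.06; adjusted p = 0.964). Of the 7 MCM genes, 5 had a higher and 2 a lower mean in KO, and 0 passed. Mcm2, a subunit of the ring that also handles histones, had the smallest p of the 34 genes. Its levels were 7.72, 7.68 and 7.67 in KO females and 7.63, 7.69 and 7.55 in KO males, against 7.60, 7.64 and 7.48 in WT females and 7.56, 7.62 and 7.52 in WT males. KO females were above WT females in every array, the males overlapped, and the difference was 0.09 (SE 0.04; adjusted p = 0.576), with a 95% interval from -0.01 to 0.18. Mcm5 stood at 7.62, 7.54 and 7.63 in KO females and 7.68, 7.75 and 7.87 in KO males, against 7.60, 7.74 and 7.62 in WT females and 7.62, 7.60 and 7.56 in WT males. It was higher in every KO male than in every WT male, while the females overlapped, and over both sexes it differed by 0.06 (SE 0.05; adjusted p = 0.725). Mcm7 had levels of 7.77, 7.67 and 7.70 in KO females and 7.76, 7.80 and 7.82 in KO males, against 7.69, 7.61 and 7.61 in WT females and 7.67, 7.92 and 7.81 in WT males. KO and WT overlapped in both sexes, with a difference of 0.04 (SE 0.05; adjusted p = 0.863). The remaining ring subunits differed by 0.04 (Mcm4), -0.02 (Mcm6) and -0.00 (Mcm3, dim), and Mcm10, which joins the ring when the origin fires, by 0.01, with adjusted p from 0.824 to 0.999.

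MCM genes are textbook targets of E2F, so their promoters were searched for TTTNNCGC, a short form of the E2F site, on both strands, where matches may overlap. The RefSeq promoter table of GRCm38.p6 gives 250 bases before and 50 after each gene's start and held 26 of the 36 listed genes. Of those 26, 13 had a match (50% of them), beside 5.93% of all genes in the table, while the median GC content was 61.7% over the promoters of the listed genes and 52.7% over all promoters. The 13 were Cdc6, Cdk2, Cdk6, Cdt1, E2f2, E2f3, Mcm3, Mcm5, Mcm6, Mcm7, Pola1, Rfc3 and Tyms. A match is a string of letters and no measured site. The 250 bases before the start are given for the MCM genes with matches there, Mcm5, which was apart in males, Mcm6 and Mcm7, with the matches in capitals. Mcm5 has 2 overlapping matches on opposite strands, Mcm6 has 3, and Mcm7 has 1 before the start and 1 after it that is not printed. Mcm7 has a second window in the table, with no match, and the matches of Mcm3 lie after its start. They lie at chr8:75109259-75109508 on the + strand for Mcm5, chr1:128359706-128359955 on the - strand for Mcm6 and chr5:138171884-138172133 on the - strand for Mcm7.
Mcm5: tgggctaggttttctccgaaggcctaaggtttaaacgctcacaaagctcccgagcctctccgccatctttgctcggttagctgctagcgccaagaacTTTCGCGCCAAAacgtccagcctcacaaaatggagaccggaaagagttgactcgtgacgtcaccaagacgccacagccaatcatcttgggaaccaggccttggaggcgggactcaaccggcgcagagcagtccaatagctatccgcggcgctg
Mcm6: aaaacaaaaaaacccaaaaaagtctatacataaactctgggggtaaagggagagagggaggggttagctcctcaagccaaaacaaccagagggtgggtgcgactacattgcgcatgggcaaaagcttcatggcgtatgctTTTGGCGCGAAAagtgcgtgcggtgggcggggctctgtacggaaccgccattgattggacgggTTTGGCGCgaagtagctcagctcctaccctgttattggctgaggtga
Mcm7: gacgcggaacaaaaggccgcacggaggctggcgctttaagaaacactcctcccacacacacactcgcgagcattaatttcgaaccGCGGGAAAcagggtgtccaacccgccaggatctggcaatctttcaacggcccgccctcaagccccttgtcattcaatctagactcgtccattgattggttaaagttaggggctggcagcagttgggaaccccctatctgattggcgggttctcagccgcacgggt
Mcm5, Mcm6 and Mcm7, which share these letters, differed between KO and WT by 0.06, -0.02 and 0.04. The dim Mcm3, with matches after its start, differed by -9e-04. Mcm2 and Mcm10, whose windows in the table have no match, differed by 0.09 and 0.01, and Mcm4 had no window there. A relation between matches and KO differences was not tested.

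The GINS subunits, which complete the helicase, were both dim. Gins2 stood at 6.49, 6.36 and 6.30 in KO females and 6.23, 6.36 and 6.32 in KO males, against 6.42, 6.43 and 6.36 in WT females and 6.54, 6.29 and 6.48 in WT males. WT males spanned 6.29 to 6.54 and overlapped KO males, and the difference was -0.08 (SE 0.05; adjusted p = 0.694). Gins1 ranged from 4.52 to 5.05 in KO and from 4.69 to 5.05 in WT, with 0.02 (SE 0.08; adjusted p = 0.976). At the fork, Pcna, the sliding clamp, had levels of 9.47, 9.23 and 9.21 in KO females and 9.28, 9.49 and 9.34 in KO males, against 9.34, 9.22 and 9.14 in WT females and 9.19, 9.33 and 9.32 in WT males. Its groups overlapped in both sexes, with 0.08 (SE 0.06; adjusted p = 0.724). RPA covers single-stranded DNA in replication and repair, and its large subunit Rpa1 had the smallest SE of the 34 genes, at 8.29, 8.27 and 8.29 in KO females and 8.23, 8.31 and 8.25 in KO males, against 8.23, 8.21 and 8.23 in WT females and 8.32, 8.29 and 8.24 in WT males. KO females were above WT females by a small margin, and over both sexes Rpa1 differed by 0.02 (SE 0.04; adjusted p = 0.904). A second row of Rpa1, under the dim threshold with a mean of 5.34, had a difference of 0.20 (SE 0.09) and an unadjusted limma p of 0.0487. The middle subunit Rpa2 did not follow it, at 7.36, 7.33 and 7.30 in KO females and 7.37, 7.51 and 7.71 in KO males, against 7.44, 7.57 and 7.47 in WT females and 7.50, 7.59 and 7.53 in WT males. KO females were all below WT females, KO males spanned 7.37 to 7.71, and the difference was -0.09 (SE 0.06; adjusted p = 0.672). Rfc3, a subunit of the loader of Pcna, was dim, at 6.33, 6.34 and 6.42 in KO females and 6.45, 6.39 and 6.39 in KO males, against 6.33, 6.23 and 6.11 in WT females and 6.51, 6.62 and 6.24 in WT males. KO females were above WT females by less than the rounding shown, the 2 highest arrays were WT males, and the difference was 0.05 (SE 0.07; adjusted p = 0.867). Pola1, the catalytic subunit of the primase polymerase, stood at 7.99, 7.89 and 7.91 in KO females and 8.004, 7.96 and 8.07 in KO males, against 7.90, 7.85 and 7.90 in WT females and 7.84, 8.09 and 8.06 in WT males. Its groups overlapped in both sexes, and the difference was 0.03 (SE 0.05; adjusted p = 0.896). The dim Pole, of the leading strand polymerase, differed by -0.02 (SE 0.05; adjusted p = 0.941), and its second row by 0.00 (SE 0.09).

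Nucleotide supply for DNA synthesis was represented by ribonucleotide reductase and thymidylate synthase. Rrm1, the large subunit of the reductase, had levels of 8.61, 8.55 and 8.53 in KO females and 8.61, 8.52 and 8.51 in KO males, against 8.53, 8.50 and 8.42 in WT females and 8.56, 8.64 and 8.57 in WT males. KO females were above WT females and the males overlapped, with 0.02 (SE 0.04; adjusted p = 0.909). Rrm2, its S phase subunit, was dim, at 5.37, 5.84 and 5.81 in KO females and 5.78, 5.93 and 5.59 in KO males, against 5.74, 5.76 and 5.64 in WT females and 5.60, 5.71 and 5.60 in WT males. KO female replicate 1 was the lowest array, and the difference was 0.05 (SE 0.09; adjusted p = 0.909). A still dimmer second row of Rrm2, with a mean of 3.28, differed by -0.26 (SE 0.09), with an unadjusted limma p of 0.0129, so the rows disagreed in sign. Tyms stood at 7.75, 7.71 and 7.47 in KO females and 7.34, 7.65 and 7.63 in KO males, against 7.68, 7.71 and 7.75 in WT females and 7.63, 7.57 and 7.32 in WT males. The lowest arrays were 1 KO male and 1 WT male, and the difference was -0.02 (SE 0.08; adjusted p = 0.964).

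Taken within each sex, KO and WT males differed at an adjusted p under 0.05 in 0 of the 34 genes (0.0225% of all genes), and KO and WT females likewise in 0 (0.0225% of all genes). At an unadjusted p under 0.05 there was 1 of the 34 in males, Mcm5, where 5.42% of all genes passed, and 0 in females, where 8.49% did. Mcm5 differed by 0.17 (SE 0.07; adjusted p = 0.875) in males and by -0.06 (SE 0.07; adjusted p = 0.849) in females. Without KO male replicate 3, its highest array, 0 of the 34 had an unadjusted p under 0.05 in males, and without WT male replicate 2 there were 3. Over all genes, that count in males was 1202 with all arrays and 1096 to 1441 without 1 array. Ccnd1 followed in males, with 0.19 (SE 0.09; adjusted p = 0.918), and Gins2, with -0.13 (SE 0.08; adjusted p = 0.924). In females the smallest p belonged to Rpa2, with -0.16 (SE 0.08; adjusted p = 0.613), Mcm2, with 0.12 (SE 0.06; adjusted p = 0.648), and Rfc3, with 0.14 (SE 0.09; adjusted p = 0.706). KO and WT males were apart for 2 of the 34 genes (5.88%), Ccnd1 and Mcm5, both higher in KO, against 10.3% of all genes. KO and WT females were apart for 6 (17.6%), against 14.9% of all genes: Mcm2, Rpa1, Rfc3, Rb1 and Rrm1 were higher and Rpa2 was lower in KO. None of these 8 genes was apart in both sexes.

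The sign of the KO difference was shared by the sexes for 16 of the 34 genes (47.1%), 8 higher and 8 lower in KO, beside 56.1% of all genes. The 8 lower in both were Ccnd2, Ccna2, Cdkn1b, Cdkn1c, Cdt1, Rpa2, E2f1 and Gins2, and the 8 higher in both were Ccnd1, Cdk2, Cdk4, Mcm2, Mcm4, Pcna, Rb1 and Pola1. These directions are not firm, since under the alternative settings 20 of the 34 genes changed sign at least once in males and 16 in females. The test of the difference itself, females minus males, called 0 of the 34 at an adjusted p under 0.05, with 0% of all genes called, and 1, Mcm5, at an unadjusted p under 0.05, against 4.82% of all genes. The KO effect on Mcm5 was lower in females than in males by a difference of -0.23 (SE 0.09; adjusted p = 0.998). Next came Ccne1, with 0.22 (SE 0.12; adjusted p = 0.998), and the dim Pole, with -0.18 (SE 0.10; adjusted p = 0.998). The 95% intervals of this difference reached as far as 0.62 from 0 and lay within 0.5 for 30 of the 34 genes.

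**Figure D4:**
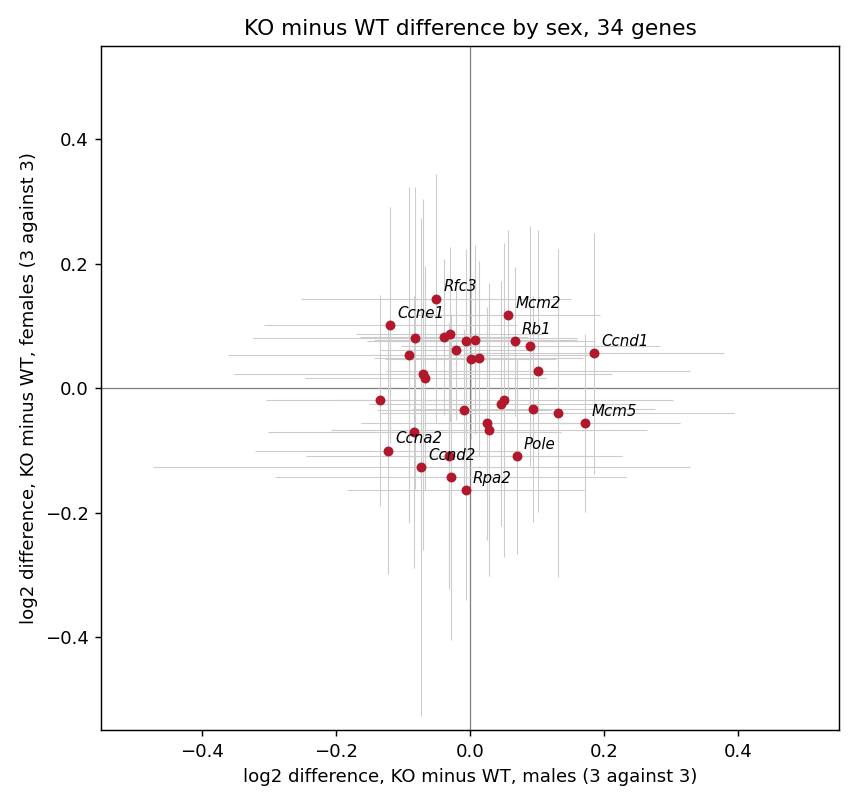
KO minus WT difference of each of the 34 genes in males (horizontal axis) and in females (vertical axis), on the log2 scale, each from 3 against 3 arrays, with 95% intervals from limma as grey lines. The points form a round cloud about 0, with Mcm5 and Ccnd1 farthest to the right, Rfc3 highest and Rpa2 lowest.

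Between the sexes, with both genotypes averaged, 0 of the 34 genes passed at an adjusted p under 0.05, against 0.0361% of all genes, and 2 did at an unadjusted p under 0.05, against 7.93%. The median difference, females minus males, was -0.02 over the 34 genes, with 12 higher and 22 lower in females, beside 10805 higher, 11375 lower and a median of -0.0028 over all genes. The 2 were Pole and Mcm7. The dim Pole stood at 6.07, 6.12 and 6.13 in KO females and 6.18, 6.11 and 6.36 in WT females, against 6.37, 6.40 and 6.28 in KO males and 6.35, 6.28 and 6.22 in WT males. KO females were below every KO male and WT females were spread over most of the range, and the difference was -0.15 (SE 0.05; adjusted p = 0.573). The female and male arrays of Mcm7 overlapped in both genotypes, with a difference of -0.12 (SE 0.05; adjusted p = 0.6). Next in order were Cdk4, with -0.09 (SE 0.04; adjusted p = 0.633), Rpa2, with -0.12 (SE 0.06; adjusted p = 0.635), and Rfc3, with -0.14 (SE 0.07; adjusted p = 0.637). Tyms differed in the other direction, with 0.15 (SE 0.08; adjusted p = 0.652). Pola1 is the X-linked member of the list and differed by -0.09 (SE 0.05; adjusted p = 0.677).

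In the wider pathway, too, no gene of the lists tested passed the adjusted threshold. Of the 21 tested genes of origin recognition and licensing beyond the 34, 0 passed in KO against WT over both sexes. At an unadjusted p under 0.05 there were 0, against 9.26% of all genes, and the median difference was 0.02. The smallest p values there were those of Orc1, a dim subunit of the origin recognition complex (0.08), and Mcmbp, which binds MCM subunits (-0.07). Further fork enzymes numbered 24, with 0 past the adjusted threshold and a median of 0.00. At an unadjusted p under 0.05 there was 1, against 9.26% of all genes. That gene was Rpa3, the small subunit of RPA, with 0.13 (SE 0.06; adjusted p = 0.533). The dim Dscc1, of an alternative clamp loader, came next, with -0.11 (SE 0.07; adjusted p = 0.638). Among 15 other E2F, pocket protein and DREAM factors 0 passed, with a median of 0.04. Of the 15, 4 (all higher in KO) had an unadjusted p under 0.05, against 9.26% of all genes. These were E2f4, a mostly repressive E2F factor, with 0.13 (SE 0.05; adjusted p = 0.467), Rbl1, a relative of Rb1, with 0.10 (SE 0.04; adjusted p = 0.492), Lin37, of the DREAM complex, with 0.14 (SE 0.06; adjusted p = 0.51), and Tfdp1, the dimer partner of E2F, with 0.09 (SE 0.04; adjusted p = 0.538). The KO and WT arrays of Rbl1 were apart, as were those of 0.55% of all genes, at 7.66, 7.60 and 7.57 in KO females and 7.72, 7.64 and 7.61 in KO males, against 7.56, 7.46 and 7.52 in WT females and 7.57, 7.54 and 7.54 in WT males.

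CDK inhibitors and G1/S regulators outside the 34 numbered 20, and 0 passed, with a median of 0.02. At an unadjusted p under 0.05, 2 of the 20 were higher and 2 lower in KO, against 9.26% of all genes. The largest difference among them was that of Cdkn1a, whose product is the binding partner after which Ciz1 is named, at 9.14, 9.56 and 9.84 in KO females and 8.99, 9.39 and 9.11 in KO males, against 8.97, 9.22 and 9.19 in WT females and 8.71, 8.97 and 9.13 in WT males. KO females were high, at 9.14 to 9.84, but overlapped WT females, and the difference was 0.31 (SE 0.12; adjusted p = 0.499). Cks1b, which helps the ubiquitin ligase SCF to mark Cdkn1b for removal, differed by 0.21 (SE 0.07; adjusted p = 0.467). The 2 lower in KO were Cul1, a scaffold of that ligase, with -0.12 (SE 0.05; adjusted p = 0.517), and Cdkn2c, an inhibitor of Cdk4 and Cdk6, with -0.12 (SE 0.05; adjusted p = 0.517). Nucleotide supply enzymes (15 tested) had 0 past the adjusted threshold and 2, both lower in KO, at an unadjusted p under 0.05, against 9.26% of all genes. These were Ctps2, a CTP synthase, with -0.20 (SE 0.05; adjusted p = 0.301), and the folate enzyme Mthfd1, with -0.10 (SE 0.04; adjusted p = 0.509). Replication-coupled chromatin genes (9 tested) had 0 past the adjusted threshold and 1 at an unadjusted p under 0.05, against the same 9.26%. That gene was the dim Chaf1a, of a histone chaperone, with -0.20 (SE 0.05; adjusted p = 0.316), followed by Supt16, of another, with -0.09 (SE 0.05; adjusted p = 0.637). The medians of these last lists were -0.02 and -0.03.

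Mitotic markers gave little signal to compare. Of 17 tested, 13 were dim and 0 passed. At an unadjusted p under 0.05, 1 was higher (Ube2c) and 3 lower (Bub1b, Cdca8 and Tpx2) in KO, against 9.26% of all genes. The median difference over the 17 was -0.01. Mki67, the standard marker of cycling cells, was dim and stood at 5.74, 5.88 and 5.71 in KO females and 5.58, 5.66 and 5.91 in KO males, against 5.73, 5.89 and 5.87 in WT females and 5.84, 5.83 and 5.94 in WT males. KO and WT overlapped. Bub1b, of the spindle checkpoint, differed by -0.31 (SE 0.10; adjusted p = 0.411), and the dim Cdca8, of the chromosomal passenger complex, by -0.18 (SE 0.05; adjusted p = 0.351). The mean over the 17 markers lay between 5.91 and 6.02 in KO females, 5.92 and 5.96 in KO males, 5.95 and 5.97 in WT females and 5.96 and 5.99 in WT males.

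**Figure D5:**
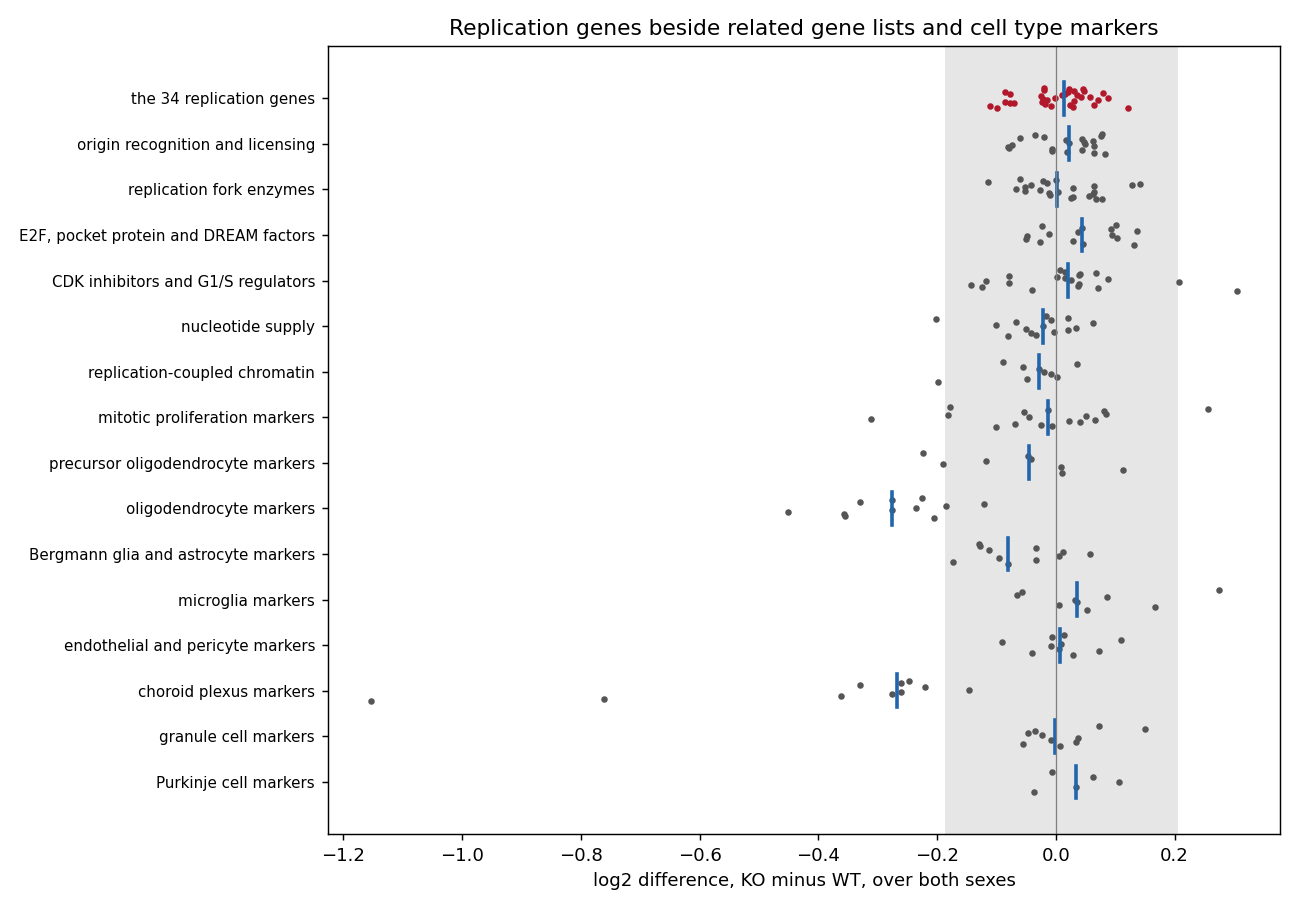
Log2 difference, KO minus WT over both sexes, of the 34 genes (red) and of related gene lists and cell type markers (grey), 1 point per gene, with the median of each list as a blue bar. The light band holds the middle 95% of all genes. The replication lists centre near 0, while the oligodendrocyte and choroid plexus points all lie below 0.

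Cell type markers stood farther from 0 in some lists. All 11 tested oligodendrocyte markers had a lower mean in KO, with 1, Opalin, past the adjusted threshold. All 11 had an unadjusted p under 0.05, against 9.26% of all genes. The marker lists were chosen with earlier results of these data known, so these counts describe the data and are no independent test. In females 9 of the 11 had an unadjusted p under 0.05 (8.49% of all genes), with a median difference of -0.36. In males 0 of the 11 did (5.42% of all genes), with a median of -0.14 and 1 gene higher in KO. The difference of the KO effects was past the adjusted threshold for 0 of the 11. Opalin, a protein of myelin, was lower in KO, with -0.45 (SE 0.06; adjusted p = 0.0369), and Mal came next, with -0.36 (SE 0.06; adjusted p = 0.154). Their mean level lay between 8.88 and 8.98 in KO females and 8.92 and 9.30 in KO males, against 9.26 to 9.40 in WT females and 9.18 to 9.36 in WT males. Precursor oligodendrocyte markers, whose cells still divide in the adult, had a median difference of -0.04 over 8 genes, 0 past the adjusted threshold, and Sox10, also made by mature cells, had the smallest p, with -0.22 (SE 0.08; adjusted p = 0.472), before Olig1, with -0.19 (SE 0.10; adjusted p = 0.58). All 10 tested markers of the choroid plexus also had a lower mean in KO, with a median difference of -0.27 and 0 past the adjusted threshold. At an unadjusted p under 0.05 there were 2 of the 10, against 9.26% of all genes. They were Slco1a5 with -0.26 (SE 0.11; adjusted p = 0.517) and Folr1 with -0.36 (SE 0.17; adjusted p = 0.538). The mean of the 10 markers spanned 6.64 to 7.93 in KO females and 6.88 to 7.73 in KO males, against 6.91 to 8.22 in WT females and 7.23 to 8.29 in WT males. Microglia markers, of another cell type able to divide, had a median difference of 0.04 over 9 genes, 0 past the adjusted threshold, led by Cd68, a lysosomal protein, with 0.27 (SE 0.06; adjusted p = 0.229), and C1qb, of complement, with 0.17 (SE 0.08; adjusted p = 0.568). Bergmann glia and astrocyte markers had a median of -0.08 over 11 genes, led by Vim (-0.13) and Aqp4 (-0.17). Of these 11, 3 had an unadjusted p under 0.05 over both sexes (9.26% of all genes), 4 in males (5.42%) and 0 in females (8.49%). All of them were lower in KO. The other lists centred closer to 0, with medians of -0.00 for 10 granule cell markers (Etv1 0.15, Gabrd 0.07), 0.03 for 5 Purkinje cell markers (Ppp1r17 0.11, Rgs8 0.06) and 0.01 for 7 interneuron markers (Slc6a5 -0.09, Gad2 -0.07). Endothelial and pericyte markers (10 genes) had a median of 0.01, with Rgs5 at 0.11 and Flt1 at 0.07, and meningeal fibroblast markers (9 genes) one of 0.02, with Aldh1a2 at -0.24 and Col1a2 at -0.11. None of these passed the adjusted threshold. When the mean level of the oligodendrocyte markers, or that of the choroid plexus markers, entered the fit beside the groups, 0 of the 34 genes passed at an adjusted p under 0.05 in KO against WT over both sexes.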

How the data were processed

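RNA of 12 mouse cerebella was measured on Affymetrix arrays. Per the labels, the authors summarised the probes at the level of core exons with RMA in Affymetrix Expression Console, and the submitters' processing notes name Transcriptome Analysis Console 3.0. The deposited values are intensities on a linear scale, and log2 of each intensity was taken here with no pseudocount. The genome build of the array annotation is not given in the sources used here. Of 41345 rows, 23521 carried 1 gene symbol, 1814 several and 16010 none. Each gene was represented by its brightest row on average, which left 22180 genes, and 1082 genes, among them Pole, Rb1, Rpa1 and Rrm2, had several rows. Symbols came from GEO's annotation of the array, which can be old, and the Entrez IDs of 21994 genes matched the RefSeq table of GRCm38.p6.

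limma 3.58.1 in R 4.3.3 was fitted with 1 mean per group and a spread shared over the 12 arrays (8 residual degrees of freedom). Tests were two-sided, and p was adjusted by Benjamini-Hochberg over all 22180 genes at a threshold of 0.05. Contrasts were KO minus WT over both sexes, in males and in females, the difference of the KO effects (females minus males), and females minus males over both genotypes. SE values and 95% intervals are those of limma, and second rows of a gene come from a limma fit over all 41345 rows. The fit was tested on simulated data. P-values weigh a difference against the spread between mice within groups, since each mouse gave 1 array. That spread is pooled over the groups and drawn by limma toward that of all genes. The number of arrays limits the precision.

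The genes and lists were chosen with earlier results of these data known. All 34 genes are named, and those with the 8 smallest p in a contrast were chosen for values in every array. Ciz1 and the 2 genes with the smallest p of each related list were named by rule. Mki67, Eif2s3y, the array values of Ccnd2, Cdkn1a and Rbl1, and further genes of small counts were named after their values were seen. Alternatives were the mean of a gene's rows, an intensity trend, array weights, genes above the median brightness, quantile normalization, marker levels as covariates, and leaving out each array.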

Additional observations from a re-analysis of the deposited data

How the results depend on the processing

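The count of replication genes at an adjusted p under 0.05 was 0 in all 5 contrasts under every alternative run, with a lowest adjusted p of 0.386 over both sexes, 0.677 in males and 0.417 in females. Uncalled differences turned: 18 of the 34 genes changed sign under some alternative over both sexes, 20 in males and 16 in females. At an unadjusted p under 0.05, KO against WT over both sexes had 0 such genes as reported, 1 with an intensity trend, 1 with the oligodendrocyte covariate, and 0 to 2 without 1 array (2 without KO male replicate 3). In males the 1 gene, Mcm5, became 2 with the trend, 2 among genes above the median brightness, 2 after quantile normalization, and 0 to 3 without 1 array (0 without KO male replicate 3, 3 without WT male replicate 2). In females 0 became 1 with the mean of a gene's rows, 1 above the median brightness, 1 after quantile normalization, 1 with the oligodendrocyte covariate, and 0 to 1 without 1 array. The difference of the KO effects had 1, and 0 to 2 without 1 array (0 without KO female replicate 2, 2 without KO male replicate 1). Females against males had 2, with 5 under the trend, 4 above the median brightness, 4 after quantile normalization, 1 with the oligodendrocyte covariate, and 1 to 5 without 1 array (5 without WT male replicate 1). Without 1 array, the counts over all genes at that threshold were 1697 to 2261 over both sexes, 1096 to 1441 in males and 1444 to 1987 in females. They were 996 to 1194 for the difference of the KO effects and 1412 to 1899 for females against males.

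Over all genes, 5 were called over both sexes, with 18 under the trend, 14 above the median brightness, 3 with the choroid plexus covariate, 2 with the oligodendrocyte covariate, and 3 to 8 without 1 array. In males 5 were called, with 2 under the oligodendrocyte covariate and 2 to 4 without 1 array. In females 5 were called, with 26 under the trend, 16 above the median brightness, 1 under the oligodendrocyte covariate, and 3 to 7 without 1 array. The difference of the KO effects had 0 called, with 2 under the trend, 2 above the median brightness and 0 to 1 without 1 array, and females against males had 8, with 15 and 13. Above the median brightness fewer genes were tested (11090). The dim replication genes, and some that were not dim, were not among them. In males 688 had an unadjusted p under 0.05, beside 1202 of all genes. For the difference of the KO effects 543 did, beside 1070 of all genes.

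The median difference of the replication genes over both sexes was 0.0132, and -0.004 to 0.0166 without 1 array, its sign turning without WT female replicate 2 or WT male replicate 2. Values above the median brightness leave out the dim replication genes and also some that were not dim, and so cover fewer of them. In females the median difference was 0.0196, with 0.0616 above the median brightness, -0.0169 with the oligodendrocyte covariate, and -0.0059 to 0.0435 without 1 array. For the difference of the KO effects it was 0.0104, with 0.0344, -0.0202, and -0.0246 to 0.044 in the same order. Between females and males it was -0.0225, with -0.0425 above the median brightness and -0.0393 to -0.0227 without 1 array. In males it was -0.0063, with -0.0207 to 0.014 without 1 array. The causes were not tested beyond the smaller number of genes. No paired analysis was possible because the replicate numbers are accession order only.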

Other observations

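With the mean level of 10 choroid plexus markers as a covariate beside the groups, 34 of 22180 genes (0.153%) had a slope at an adjusted p under 0.05 in limma, and none of the 34 replication genes was among them. The 10 markers were themselves among the genes tested, so their own slopes follow in part from how the covariate was made. The shares over all genes were not taken without them. At an unadjusted p under 0.05 there were 2 of the 34 replication genes, against 6.53% of all genes. Ccnd2, a D-type cyclin, had a slope of 0.30 (SE 0.10; adjusted p = 0.646), and Pola1, of the primase polymerase, had a slope of -0.10 (SE 0.04; adjusted p = 0.745). The choroid plexus level spanned 6.64 to 8.29 over the 12 arrays, the widest range of the marker lists apart from the Y-linked genes.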
